A study of Mus musculus with 3 samples.

Results

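The nuclear genes for the subunits of the respiratory chain and of ATP synthase were described in mpkDCT4a cells, an immortalised mouse kidney line labelled as distal convoluted tubule (DCT) cells. They were taken by symbol among the protein-coding nuclear genes of GENCODE M21: names that begin with Nduf followed by a subunit letter and a digit, the 4 Sdh genes, names that begin with Uqcr, Cyc1, names that begin with Cox4 to Cox8, and names that begin with Atp5. This gave 86 of the 55487 genes in the table, 37 assigned to complex I, 4 to complex II, 9 to complex III, 18 to complex IV and 18 to complex V, on 19 chromosomes. The rule uses symbols and no measured value. The rule missed Ndufab1 and Usmg5, whose products also belong to these complexes, and it placed Ndufa4 with complex I although its product is now known as a part of complex IV.

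All 3 libraries came from unmodified (WT) cells of this line and formed 1 group, so no treatment or genotype could be compared. The cells had grown at 37 °C and 5% CO2 in DMEM/F-12 with 2% fetal calf serum, insulin and transferrin (5 μg/ml each), selenate (90 nM), glutamine (2 mM), glucose (20 mM), dexamethasone (50 nM), triiodothyronine (1 nM) and epidermal growth factor (10 ng/ml). Ribosomal RNA was removed from 500 ng of total RNA before sequencing. Total counts were 436983 for replicate 1, 482418 for replicate 2 and 443192 for replicate 3. On the scale of counts-per-million (CPM) a single count thus stood for 2.31, 2.07 and 2.24 CPM. For a gene without counts, 3 counts of the summed total, or 2.20 CPM, was taken as the upper limit. This is about the 95% bound from counting error, so higher levels are not excluded. Of 12 markers of the distal convoluted tubule, 5 were detected (Wnk4, Cnnm2, Trpm6, Kcnj10 and Egf), and the defining Slc12a3 and Pvalb had 0 counts. The 12 together had 38, 32 and 42 counts. Of 8 markers of the proximal tubule 4 were detected (Lrp2, Aqp1, Slc6a19 and Cubn), and the 8 had 113, 152 and 130 counts. The detected markers had a median of 4.54 TPM for the distal convoluted tubule and 27.0 TPM for the proximal tubule, so these markers did not show the labelled segment. Of 3 markers of the thick ascending limb 1 was detected, and markers of intercalated cells, leukocytes, endothelium and male germ cells had 0 counts.

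The respiratory chain lies in the inner mitochondrial membrane. Complex I takes electrons from NADH and complex II from succinate, both pass them through ubiquinone to complex III, cytochrome c carries them on to complex IV, and the proton gradient built by complexes I, III and IV drives ATP synthesis in complex V. Most subunits are encoded in the nucleus and imported, a few are encoded in mitochondrial DNA, and complex II is wholly nuclear. The distal convoluted tubule is among the nephron segments richest in mitochondria, which supply its sodium pumps with ATP. Several subunits of complex IV exist as a widely expressed form and as alternative forms known from muscle, lung or testis.

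The promoters are shown first because the nuclear subunit genes have long been known to share binding motifs for the factors NRF1, ETS family members such as GABP, and YY1. RefSeq windows (GRCm38.p6), which run from 250 bases before to 50 bases after each start, were found for 66 of the 86 genes, in 71 windows. The subunit genes were matched by Ensembl identifier, or by symbol where that failed, and the detected protein-coding genes by symbol. Both strands were searched, and the NRF1 letters (GCGCA and GCGC with any 1 base between them, in either orientation) occurred in 25.4% of these windows, in 10.4% of the 11335 windows of detected protein-coding genes and in 4.60% of all 32851 windows. The ETS letters CCGGAAG occurred in 22.5% of the subunit windows, 18.4% of the windows of detected protein-coding genes and 8.86% of all windows. The YY1 letters AAGATGGCG occurred in 9.86% (7 windows), 3.22% and 1.40% of the same sets of windows. For the letters TCAAGGTCA bound by estrogen-related receptors these values were 2.82% (only 2 windows), 0.247% and 0.423%. For the TATA box letters TATAAA they were 11.3% (8 windows), 6.54% and 13.6%. A match is a run of letters and not a measured site, and no binding was measured in these samples.

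In 3 genes an NRF1 match and an ETS match both lay within the 250 bases before the RefSeq start, and these stretches are printed 5′ to 3′ on the gene's own strand, with the matches in capitals. They are Cox6a1 (chr5:115348959-115349208, minus strand) with 2 NRF1 matches and 1 ETS match, Sdhd (chr9:50603850-50604099, minus strand) and Atp5h (chr11:115419920-115420169, minus strand) with 1 match of each.
Cox6a1: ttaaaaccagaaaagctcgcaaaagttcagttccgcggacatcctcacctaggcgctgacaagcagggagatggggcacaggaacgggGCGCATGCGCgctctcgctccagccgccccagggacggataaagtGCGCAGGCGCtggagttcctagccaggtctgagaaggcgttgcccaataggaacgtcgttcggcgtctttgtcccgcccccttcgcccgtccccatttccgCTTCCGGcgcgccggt
Sdhd: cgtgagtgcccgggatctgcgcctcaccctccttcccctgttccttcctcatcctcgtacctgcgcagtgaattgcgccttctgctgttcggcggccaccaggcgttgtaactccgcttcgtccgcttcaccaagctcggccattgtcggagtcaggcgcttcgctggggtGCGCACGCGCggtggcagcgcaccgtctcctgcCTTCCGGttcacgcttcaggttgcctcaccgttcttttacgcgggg
Atp5h: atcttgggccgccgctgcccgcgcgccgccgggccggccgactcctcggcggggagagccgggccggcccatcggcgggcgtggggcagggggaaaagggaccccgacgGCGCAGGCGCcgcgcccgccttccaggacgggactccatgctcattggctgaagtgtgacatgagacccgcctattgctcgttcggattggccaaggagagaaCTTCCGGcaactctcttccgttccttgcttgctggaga
Cox6a1, Sdhd and Atp5h had mean levels of 569.8, 271 and 203 transcripts-per-million (TPM), which are counts divided by the summed length of a gene's exons and scaled to a common total. Values after ± are SDs over the 3 libraries throughout.

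The expressed and silent forms of subunit 6b of complex IV are printed in the same way for the comparison of isoforms that follows. Cox6b2 (chr7:4753095-4753344, minus strand) had 0 counts and no NRF1, ETS or YY1 match. Cox6b1 (chr7:30626115-30626364, minus strand) had 35, 39 and 39 counts and 1 ETS match.
Cox6b2: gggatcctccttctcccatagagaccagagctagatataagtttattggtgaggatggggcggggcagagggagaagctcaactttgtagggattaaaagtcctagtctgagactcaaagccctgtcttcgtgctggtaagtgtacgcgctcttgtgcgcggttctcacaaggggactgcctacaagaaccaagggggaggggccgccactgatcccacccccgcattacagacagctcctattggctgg
Cox6b1: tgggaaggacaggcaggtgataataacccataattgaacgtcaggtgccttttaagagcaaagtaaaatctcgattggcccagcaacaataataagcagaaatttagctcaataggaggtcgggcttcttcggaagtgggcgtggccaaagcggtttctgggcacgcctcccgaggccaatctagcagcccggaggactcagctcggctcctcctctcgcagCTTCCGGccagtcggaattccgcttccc
For Cox6a1, Atp5h and Cox6b1 the GENCODE annotation places the gene's start inside the printed stretch. Of the 4 silent genes with a window (Cox6b2, Cox7a1, Cox7b2 and Cox8b), 0 held an NRF1, ETS or YY1 match and 2 held the TATA letters (Cox7b2 and Cox8b). Nothing particular is read from 4 windows. At least 1 NRF1, ETS or YY1 match stood in 35 of the 71 subunit windows (49.3%), 28.8% of the windows of detected protein-coding genes and 13.6% of all windows.

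Most of the subunit genes were expressed. A mean of at least 1 CPM, called detected here, was reached by 77 of 86 genes (89.5%), where 50.6% of all 21961 nuclear protein-coding genes reached it. The other 9 had 0 counts in every library: Ndufa4l2, Cox4i2, Cox6a2, Cox6b2, Cox7a1, Cox7b2, Cox8b, Cox8c and a second gene annotated as Atp5o (ENSMUSG00000116933), 8 of which are alternative forms of a subunit whose usual form was detected. The 86 genes together took 3708, 4276 and 3920 counts, or 0.849%, 0.886% and 0.884% of the libraries (mean 0.873% ± 0.0213, SD, n = 3, against an SD of 0.0139 from counting error alone). In bulk RNA, a change in the number of cells that express a gene and a change in RNA per cell cannot be told apart.

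Per length, the detected subunit genes had a median of 137.7 TPM, while the 11115 detected nuclear protein-coding genes had a median of 31.4 TPM. The medians of the subunit genes within the single libraries were 146, 163 and 152 TPM. At least 100 TPM was reached by 54 of the 77 detected subunit genes (70.1%), where 17% of the detected nuclear protein-coding genes reached it. Over all exons, Ndufb4, Atp5s, Atp5l and Ndufb2 were the 4 detected subunit genes below the median of the detected nuclear protein-coding genes. Genes for mitochondrial ribosomal proteins, another set of nuclear genes for a mitochondrial machine, had a median of 45.6 TPM over 77 detected of 78, and 1200, 1319 and 1231 counts in all.

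The length used matters for these short messages. In 33 of the detected subunit genes the summed exons were more than 2 times as long as the principal transcript (the APPRIS choice of main protein-coding isoform), so that all-exon lengths lower their TPM relative to other genes. By principal transcript, a length scale chosen after the data were seen, the median was 167 TPM and 64 of 77 genes (83.1%) reached 100 TPM, where 18.3% of the detected nuclear protein-coding genes did. On that scale 76 subunit genes lay above the median of the detected nuclear protein-coding genes (33.9 TPM), and Atp5s lay below it. The common total also changes, so a gene of equal length on both scales has 0.642 times the TPM by principal transcript, and TPM can be compared only within a scale. TPM below is over all exons unless the principal transcript is named.

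**Figure D1:**
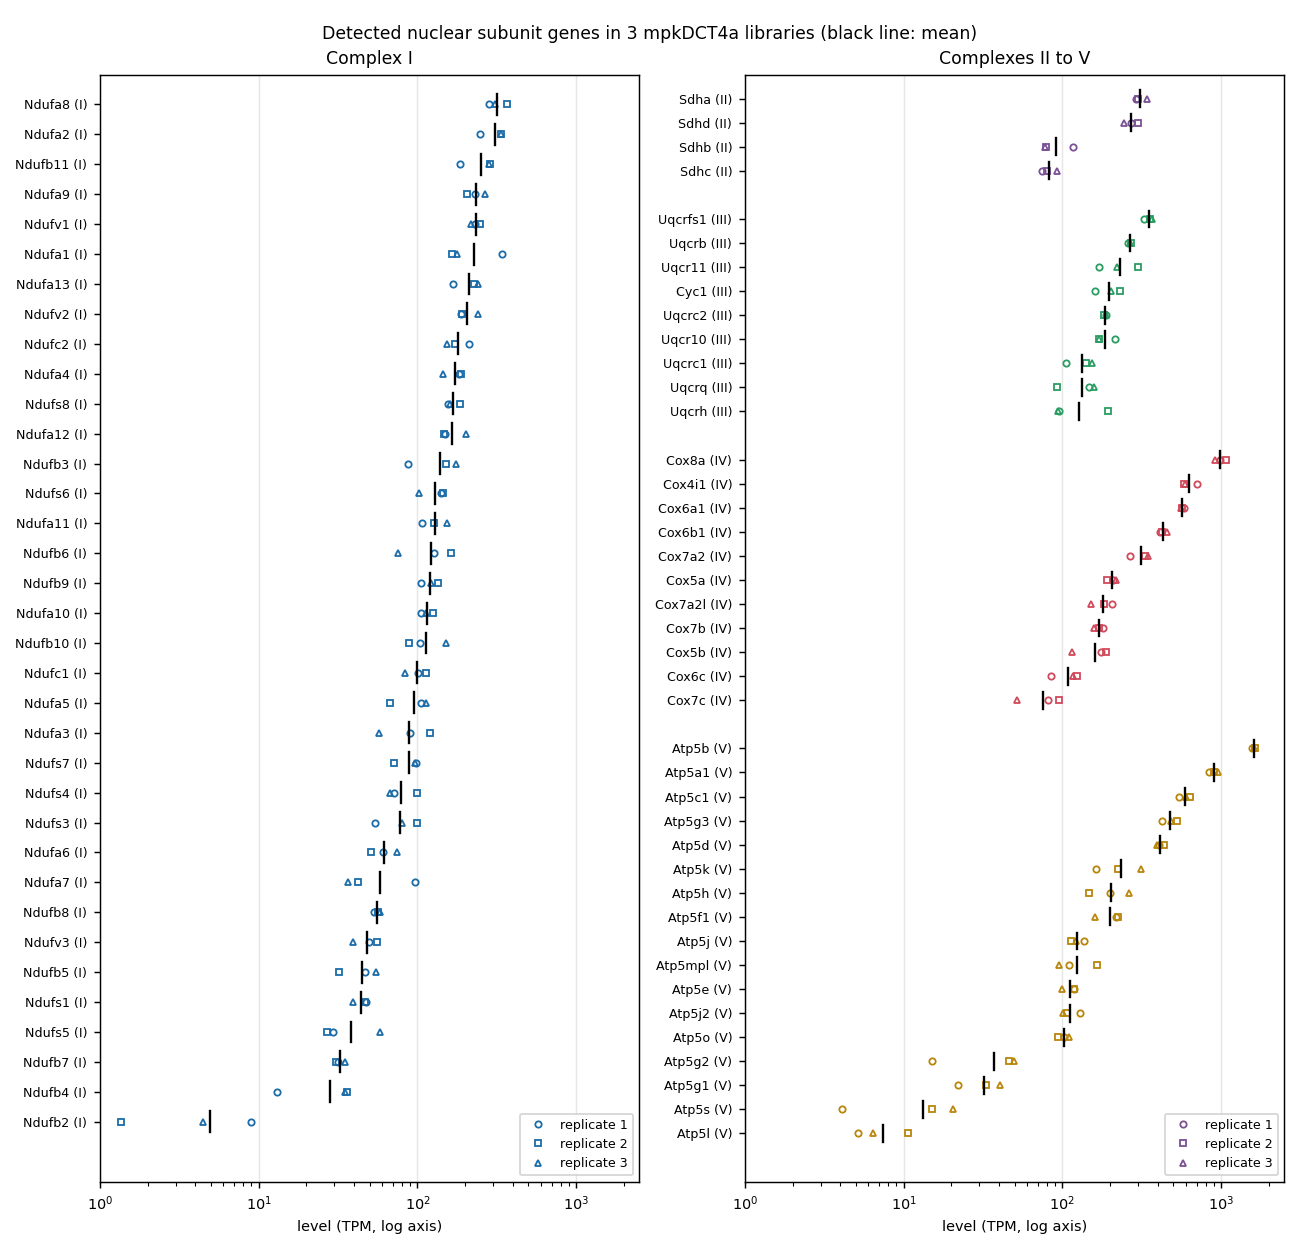
Levels of the detected subunit genes reported here, in TPM on a log axis, ordered within each complex, with complex I in the left panel and complexes II to V in the right panel. Symbols are the 3 libraries and black lines their means, and the libraries of most genes lie close together next to the range between genes, which runs to 1609 TPM for Atp5b.

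Complex I was detected in 36 of its 37 genes, with 872, 999 and 941 counts in all and a median of 117 TPM (130 by principal transcript). Its 7 core subunits, which carry the flavin and iron-sulfur clusters and are conserved from bacteria, had a median of 167 TPM and 317, 364 and 344 counts. The 29 detected supernumerary subunits, which surround that core in animals, had a median of 114 TPM and 555, 635 and 597 counts. Ndufa4 was counted among them. The single-library medians were 156, 184 and 161 TPM for the core and 105, 124 and 112 TPM for the supernumerary genes, and the ranges did not overlap.

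Ndufv1, which binds NADH and the flavin, was at 233 ± 14.9 TPM (73, 85 and 69 counts), and its partner Ndufv2 stood at 206 ± 30.0 TPM (48, 53 and 62 counts). Ndufs8 and Ndufs7, which hold the iron-sulfur clusters nearest to ubiquinone, were at 167 ± 15.3 and 88.6 ± 14.8 TPM. Ndufs3, a core subunit of the peripheral arm, was at 77.6 ± 22.6 TPM (14, 28 and 21 counts). Of the 50-base stretches of its principal transcript, 39.7% occur in other annotated genes, so its counts are uncertain. Ndufs1, the largest iron-sulfur subunit, was the lowest core gene at 44.4 ± 4.63 TPM, although its 46, 49 and 38 counts exceeded those of Ndufs3, Ndufs7 and Ndufs8 in every library. By principal transcript Ndufs1 stood at 89.0 TPM.

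Among the supernumerary genes Ndufa8 (319 ± 42.8 TPM; 29, 41 and 32 counts) and Ndufa2 (306 ± 49.9 TPM; 17, 25 and 23 counts) were the highest over all exons. By principal transcript they stood at 205 and 197 TPM, below Ndufc1 at 302 TPM (18, 22 and 15 counts) and Ndufa9 at 218 TPM. Ndufa4, listed here although its product is a part of complex IV, stood at 337 TPM on that scale. The lowest were Ndufb2 (4.91 ± 3.80 TPM; 6, 1 and 3 counts), Ndufb4 (28.0 ± 12.9 TPM; 3, 9 and 8 counts) and Ndufb7 (32.3 ± 2.32 TPM; 17, 18 and 19 counts), all of which encode parts of the membrane arm. For Ndufb2 and Ndufb7 the annotation joins 5628 and 4522 bases of exon, against principal transcripts of 455 and 623 bases, and by those transcripts they stood at 39.0 and 151 TPM. Ndufa4 was at 172 ± 23.8 TPM over all exons. The other supernumerary genes lay between 38.0 TPM over all exons for Ndufs5 and 252 TPM for Ndufb11. Ndufs5 had 3, 3 and 6 counts and Ndufb11 had 20, 34 and 31 counts. Of the 50-base stretches of the principal transcripts, 33.5% for Ndufb2, 37.0% for Ndufb4 and 41.2% for Ndufs5 occur in other annotated genes. Their low levels are therefore uncertain. The same share was 0% for Ndufb7, and it was 28.5% for Ndufa13, which stood at 211 TPM.

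Complex II, succinate dehydrogenase, was detected in all 4 of its genes, with 244, 265 and 261 counts. Sdha, the flavoprotein that oxidises succinate, had 144, 160 and 168 counts and 309 ± 25.5 TPM (chromosome 13, 74322254 to 74350280, minus strand). Sdhb, the iron-sulfur subunit, had 31, 23 and 21 counts and 90.9 ± 21.6 TPM. The membrane anchors were unequal, with Sdhd at 40, 48 and 36 counts and 271 ± 28.1 TPM and Sdhc at 29, 34 and 36 counts and 82.4 ± 8.93 TPM (174 and 54.2 TPM by principal transcript). The per-library ratio of Sdha to Sdhb was 2.52, 3.78 and 4.34, and that of Sdha to Sdhc was 3.91, 3.71 and 3.68, so Sdha was the higher message in every library. The ratio of Sdha to Sdhd was 1.15 ± 0.21 (SD, n = 3), at 1.07, 0.995 and 1.39, and over all exons these neighbours in the order did not differ beyond their spread. By principal transcript that ratio was 1.53, 1.41 and 1.98, with Sdha higher in every library.

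Complex III was detected in all 9 genes, with 304, 387 and 352 counts and a median of 186.5 TPM (212.5 by principal transcript). Uqcrfs1, the Rieske iron-sulfur protein, was highest at 349 ± 21.1 TPM (53, 63 and 60 counts). Uqcrb, which takes part in ubiquinone binding, was at 265 ± 6.98 TPM (27, 31 and 28 counts), and the small subunit Uqcr11 at 230 ± 65.4 TPM (13, 25 and 17 counts). The lowest were Uqcrh, the hinge protein that helps cytochrome c1 meet cytochrome c, at 127 ± 56.6 TPM (14, 31 and 14 counts), Uqcrq at 132 ± 35.4 TPM (32, 22 and 35 counts) and the core protein Uqcrc1 at 133 ± 24.8 TPM (52, 76 and 76 counts). These 3 lay within each other's spread, and by principal transcript Uqcrq was instead the highest gene of the complex at 385 TPM and Uqcrc1 stood at 214 TPM. Cyc1, which encodes cytochrome c1, the core protein Uqcrc2 and the small subunit Uqcr10 lay between, at 197 ± 36.4, 186 ± 2.78 and 186 ± 25.4 TPM.

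Complex IV, cytochrome c oxidase, was detected in 11 of its 18 genes and had 511, 559 and 487 counts. The median of the detected genes was 205 TPM over all exons and 317.5 TPM by principal transcript. Cox8a was highest at 989 ± 76.5 TPM (chromosome 19, 7215153 to 7217616, minus strand; 73, 86 and 68 counts), then Cox4i1 at 624 ± 67.5 TPM (chromosome 8, 120668222 to 120674207, plus strand; 130, 117 and 110 counts) and Cox6a1 at 569.8 ± 13.5 TPM (49, 52 and 47 counts). By principal transcript Cox4i1 stood above Cox8a, at 834 and 715 TPM. The lowest detected genes were Cox7c at 76.0 ± 22.3 TPM (11, 14 and 7 counts), Cox6c at 108 ± 20.6 TPM (36, 57 and 50 counts) and Cox5b, which binds zinc, at 159 ± 38.8 TPM (33, 39 and 22 counts). Cox6c, with 3567 bases of exon and a principal transcript of 503 bases, reached 491 TPM on that scale. Of the 50-base stretches of the principal transcripts, 53.0% for Cox7c, 21.1% for Cox6c and 25.9% for Cox5b occur in other annotated genes. These low levels are therefore uncertain. The same share was 32.0% for Cox5a, which was not among the lowest. Cox5a was at 205 ± 14.0 TPM (52, 52 and 55 counts) over all exons and 429 TPM by principal transcript. The remaining detected genes, Cox6b1, Cox7a2, Cox7a2l and Cox7b, were at 432 ± 23.6, 314 ± 42.3, 179 ± 26.0 and 169 ± 10.9 TPM.

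In the subunit families of complex IV with alternative forms, the counts came from the widely expressed form, except in the Cox7a family, where Cox7a2l had counts too. Cox4i2, the form known from lung and oxygen-sensing cells, had 0 counts in each library, whereas Cox4i1 had 357 in all. Per length Cox4i1 was at least 60.5-fold higher, computed against 3 counts over the 3 libraries (116-fold by principal transcript). This fold and those that follow leave out the counting error of the higher gene. Cox6a2, a heart and skeletal muscle form, had 0 counts, and Cox6a1 with 148 was at least 47.8-fold higher. Cox6b2, a testis form, had 0 counts, and Cox6b1 with 113 was at least 58.9-fold higher over all exons and at least 28.3-fold by principal transcript. Cox7a1, a muscle form, had 0 counts, and Cox7a2 with 110 (30, 41 and 39) was at least 20.8-fold higher.

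Cox7b2, a testis form, had 0 counts, and Cox7b with 76 (26, 27 and 23) was at least 11.3-fold higher. Cox8b, a muscle form in the mouse, and Cox8c, known from testis, had 0 counts, and Cox8a was at least 44.0-fold and 56.0-fold higher than them. Of 5 striated muscle markers Ckm, Myh7, Actn2 and Mb had 0 counts and Tnnt2 had 5, 6 and 3, and 4 male germ cell markers (Prm1, Tnp1, Sycp3 and Ldhc) had 0. Ndufa4l2, a form known to be induced by low oxygen, also had 0 counts, while Ndufa4 had 30, 34 and 24 and was at least 23.3-fold higher over all exons and 60.6-fold by principal transcript.

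Cox7a2l was the alternative form that had counts. It encodes a protein that joins complexes III and IV into supercomplexes, and its 36, 35 and 27 counts stood beside 30, 41 and 39 counts of Cox7a2. Per length, Cox7a2l was at 0.569 times the level of Cox7a2, with a 95% counting interval of 0.429 to 0.754. The direction was the same in the 3 libraries, at log2 ratios of -0.39, -0.87 and -1.17. For 3 libraries the two-sided exact sign-flip permutation test cannot give a p below 0.25, and this value was reached by 11 of the 12 pairs compared (adjusted p = 0.273 over the 12 pairs). Most of these 11 pairs hold an alternative form without counts, so their direction was fixed by the zeros and the test says nothing about them. Only the pairs of Cox7a2l with Cox7a2 and of Atp5g1 and Atp5g2 with Atp5g3 could have gone either way.

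**Figure D2:**
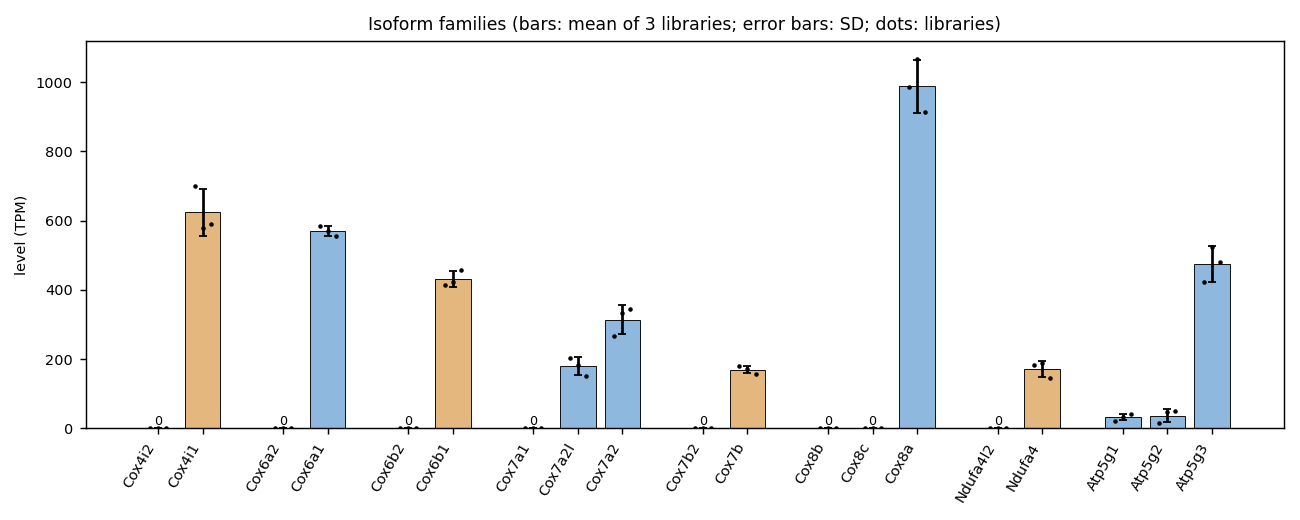
Levels in TPM of the subunit families with alternative forms, with the alternative forms left of the widely expressed form in each family. Bars are means of 3 libraries, error bars their SD and dots the libraries, a 0 marks a gene with no count, and Cox7a2l, Atp5g1 and Atp5g2 are the alternative forms with counts.

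Complex V, ATP synthase, took more counts than the genes of the other complexes, at 1777, 2066 and 1879. The catalytic F1 head accounted for most of these. Its 5 genes had 1351, 1566 and 1435 counts and a median of 591 TPM, whereas the other 12 detected genes of the complex (membrane sector, stalk and associated factors) had 426, 500 and 444 counts and a median of 118 TPM. By principal transcript these medians were 621 and 249 TPM.

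Atp5b, the catalytic beta subunit, had 792, 907 and 825 counts, 1851 ± 25.6 CPM and 1609 ± 41.1 TPM (chromosome 10, 128083273 to 128090391, plus strand). It ranked 15 among all 55487 genes by CPM and held 21.2% of the counts of the 86 genes. Atp5a1, the alpha subunit that alternates with beta around the head, had 316, 366 and 361 counts and 899 ± 57.4 TPM. The gamma subunit gene Atp5c1, the rotating shaft, was at 591 ± 44.4 TPM (124, 157 and 137 counts), the delta subunit gene Atp5d at 412 ± 21.0 TPM (94, 109 and 91 counts) and the epsilon subunit gene Atp5e at 112 ± 11.0 TPM (25, 27 and 21 counts; 301 TPM by principal transcript).

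The order of the F1 genes was the same in every library over all exons. The head holds equal numbers of alpha and beta subunits, and the ratio of Atp5b to Atp5a1 was 1.85, 1.83 and 1.69 over all exons, with a mean of 1.79 ± 0.089 (SD, n = 3). By principal transcript the mean of that ratio was 3.13. Atp5a1 was at 1.52 ± 0.0953 times the level of Atp5c1, and Atp5c1 at 1.44 ± 0.0956 times that of Atp5d. By principal transcript the same ratios were 1.18 and 1.14.

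The c ring of the membrane sector is built from a single mature protein that 3 genes encode with different import sequences. Atp5g1 had 13, 21 and 24 counts, Atp5g2 had 3, 10 and 10 counts, and Atp5g3 had 110, 149 and 126 counts. Of the 466 counts of the family, Atp5g1 had 12.4% (exact 95% binomial interval 9.59 to 15.8%), Atp5g2 4.94% (3.15 to 7.31%) and Atp5g3 82.6% (78.9 to 85.9%). Per length Atp5g1 was at 0.067 times (0.0499 to 0.0883) and Atp5g2 at 0.0778 times (0.0487 to 0.118) the level of Atp5g3, so both lay below it in every library. By principal transcript these ratios were 0.180 (0.135 to 0.238) and 0.0967 (0.0606 to 0.147). The intervals cover counting error only, and shared sequence, given in the next paragraph, makes these shares and ratios less certain.

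Between the lower genes no order could be given. Atp5g1 was at 0.86 times the level of Atp5g2 over all exons (0.522 to 1.46; exact sign-flip p = 0.75) and at 1.87 times (1.13 to 3.17) by principal transcript, because Atp5g1 has 4912 bases of exon and a principal transcript of 596 bases. All 50-base stretches of the principal transcript of Atp5g2 and 66.0% of those of Atp5g1 occur in other annotated genes, so both counts are uncertain. For Atp5g3 this share was 0%. The shares of the family and the ratios to Atp5g3 are therefore uncertain too, and the part of shared sequence in them was not tested.

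The lowest detected genes of complex V were Atp5s (1, 4 and 5 counts; 13.2 ± 8.31 TPM, or 11.6 TPM by principal transcript), which encodes the coupling factor B, and Atp5l (4, 9 and 5 counts; 7.46 ± 2.90 TPM, or 56.7 TPM by principal transcript), which encodes a subunit of the membrane sector. Atp5g1 and Atp5g2 came next over all exons. For Atp5l 84.8% of the 50-base stretches of the principal transcript occur in other annotated genes, and for Atp5s 0% do. Atp5k, Atp5h and Atp5f1, which also belong to the membrane sector and the peripheral stalk, were at 233 ± 74.2, 203 ± 57.3 and 199.6 ± 34.3 TPM. Atp5h was at 392 TPM and Atp5f1 at 328 TPM by principal transcript. Atp5j, Atp5mpl, Atp5j2 and Atp5o lay between 102 and 124 TPM over all exons, and between 154 TPM for Atp5o and 366 TPM for Atp5j by principal transcript.

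The order of the complexes depended on the length used. Over all exons the single-library medians were 105, 126 and 113 TPM for complex I, 194, 189 and 168 for complex II, 169.6, 192 and 189 for complex III, 207, 190.0 and 218 for complex IV and 136, 147 and 122 for complex V. Complexes II, III and IV overlapped, as did I and V. By principal transcript the medians of all 3 libraries lay between 305 and 337 TPM for complex IV and between 267 and 320 for complex V, above those of complexes I, II and III.

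The mitochondrially encoded messages that were detected were higher than the median nuclear one of the same complex. In complex I the nuclear genes had a median of 115 ± 10.2 TPM and the 5 detected of 7 mitochondrial genes one of 1239 ± 87.3 TPM (SD over 3 libraries), a mitochondrial to nuclear ratio of 11.2, 10.7 and 10.7. In complex III the nuclear genes had 184 ± 12.3 TPM and mt-Cytb, its 1 mitochondrial gene, 2799 ± 226 TPM, with ratios of 15.0, 15.0 and 15.7. In complex IV the nuclear genes had 205 ± 14.0 TPM and mt-Co1 5928 ± 249 TPM, with ratios of 28.2, 32.7 and 26.3, but mt-Co1 is the 1 detected of 3 mitochondrial genes, and the median over all 3 would be 0. By principal transcript the mean ratios were 5.82, 9.05 and 12.0, so the sizes depended on the length used.

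The highest mitochondrial messages were mt-Co1 (1080, 1249 and 1064 counts), mt-Nd1 (635, 718 and 694 counts) and mt-Cytb (348, 429 and 409 counts). The 86 nuclear genes together had 3708, 4276 and 3920 counts, and the 13 mitochondrial messages had 2624, 3048 and 2723.

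Of the 13 mitochondrial messages 6 had 0 counts in every library. These were mt-Co2 and mt-Co3 of complex IV, mt-Nd3 and mt-Nd4l of complex I, and mt-Atp6 and mt-Atp8 of complex V, so complex V had no mitochondrial value. For all of them except mt-Atp8, between 98.0 and 100% of the 50-base stretches also occur in other annotated genes, most of them in nuclear pseudogenes on chromosome 1 (Gm28661 for mt-Co2, Gm28437 for mt-Co3, Gm28438 for mt-Nd3, Gm10222 for mt-Nd4l and Gm10925 for mt-Atp6). Those 5 pseudogenes held 1 count in all. For mt-Atp8 the shared percentage was 0, and for the detected mt-Co1 and mt-Nd4 it was 51.1 and 62.2%. The sources used here do not say how reads with several matches were treated, and the part of shared sequence in these zeros was not tested.

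**Figure D3:**
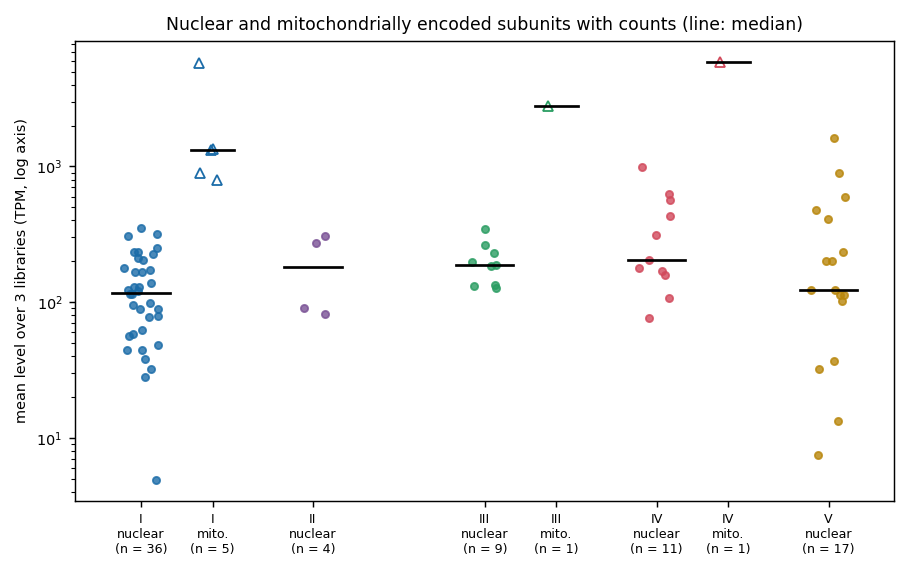
Mean level over 3 libraries in TPM, on a log axis, of each detected nuclear subunit gene (filled points) and each mitochondrially encoded gene with counts (open triangles), by complex; black lines are medians of the gene means. The mitochondrial points of complexes III and IV are single genes, mt-Cytb and mt-Co1, and all mitochondrial points lie above the nuclear median of their complex.

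Many nuclear subunit genes also share sequence with copies elsewhere. More than 20% of the 50-base stretches of the principal transcript were found in another annotated gene for 21 of the 86 genes and more than 50% for 7, while 39 genes shared none. The 7 were Atp5g2 (100%), the second Atp5o gene (89.8%), Atp5l (84.8%), Atp5h (66.6%), Atp5g1 (66.0%), Cox7c (53.0%) and Atp5o (50.3%). The genes that share most with them are processed pseudogenes, such as Gm10175 and Gm10231 for Atp5g2, Gm10250 for Atp5h, Gm10039 for Atp5g1 and Gm10012 and Gm12338 for Cox7c, or genes that overlap them, such as Donson for the second Atp5o gene.

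The pseudogenes named here held few counts, with 1, 0 and 0 for Gm10175, 1, 0 and 0 for Gm10250, 2, 0 and 0 for Gm10039, and 0 for Gm10231, Gm10012 and Gm12338. Beside Ndufa12, a supernumerary subunit gene of complex I with 28, 30 and 38 counts and 26.2% shared, the processed pseudogene Gm15920 on chromosome 5 held 27, 31 and 23 counts. The 20 detected genes with more than 20% shared had a median of 114 TPM and the 57 with up to 20% shared had 169 TPM. Counts of the genes with high shares are therefore uncertain, and the part of shared sequence in their levels was not tested. The sources used here do not give the strand setting of the counting, so reads of genes that overlap on opposite strands, such as Atp5o and the antisense gene Gm15976 (0 counts), could not be told apart.

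**Figure D4:**
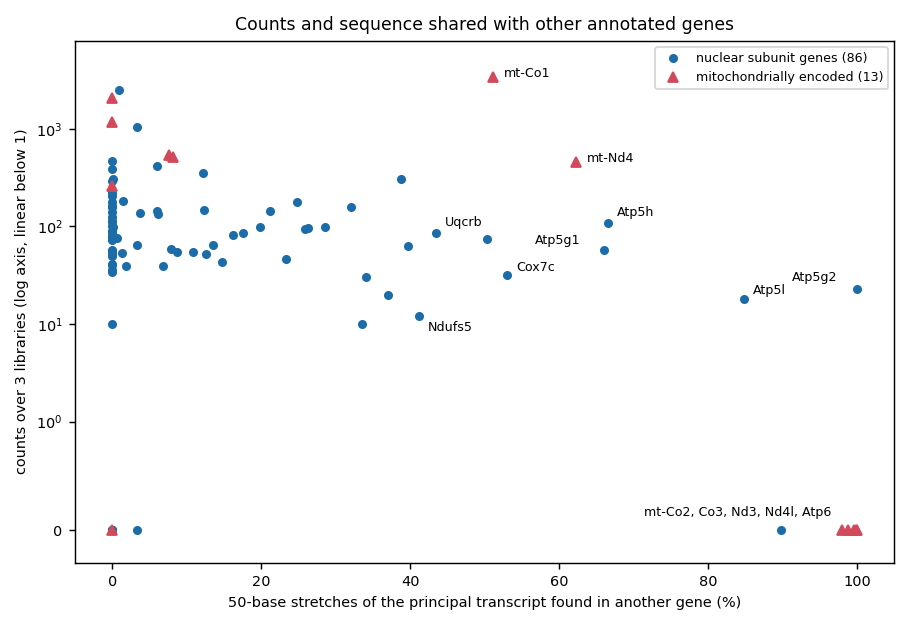
Counts summed over 3 libraries (log axis, linear below 1) against the percentage of 50-base stretches of the principal transcript found in another annotated gene, for the 86 nuclear subunit genes (circles) and the 13 mitochondrially encoded genes (triangles). The 5 triangles at 98.0 to 100% lie at 0 counts, and among the circles Atp5g2 lies at 100% with 23 counts.

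The 3 libraries showed no difference in the subunit genes that could be told from counting error. The counts of every detected gene were set against library size by chi-square tests, adjusted over all 12473 genes by the method of Benjamini and Hochberg. At this level 0 of the 77 detected subunit genes reached an adjusted p of 0.05 (lowest adjusted p = 0.902), and 0.0401% of all genes (5) did. At an unadjusted p under 0.05 there were 3 subunit genes (3.90%), where 4.89% of all genes were. These were Ndufa7, a supernumerary subunit of complex I, with 21, 10 and 8 counts (exact multinomial p = 0.0178, highest in replicate 1), Uqcrh with 14, 31 and 14 (exact multinomial p = 0.0301, highest in replicate 2) and Atp5f1, the b subunit of the peripheral stalk, with 106, 119 and 79 (exact multinomial p = 0.0377, lowest in replicate 3). The median coefficient of variation of the 77 genes was 16.5%, where the inverse square root of the mean count has a median of 19.1%. These values are not directly comparable, since an SD from 3 libraries falls below the true SD more often than above it. The median chi-square was 1.72 for the 77 genes and 1.46 for the detected nuclear protein-coding genes. For Atp5b, with the most counts, the SD was 25.6 CPM on a mean of 1851 CPM. The biological coefficient of variation over all detected genes, estimated with edgeR, was 0.0394. Since 17 of the detected subunit genes had fewer than 50 counts over the libraries, differences between libraries in those genes would have to be large to be seen.

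**Figure D5:**
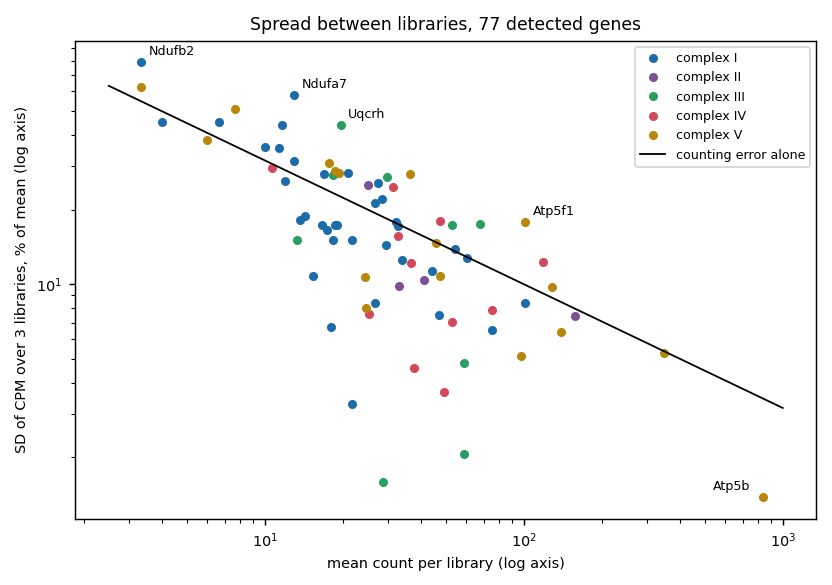
Coefficient of variation of CPM over the 3 libraries against the mean count per library for the 77 detected subunit genes, both on log axes, coloured by complex. The line for counting error alone is the inverse square root of the mean count, which an SD from 3 libraries falls below more often than above. Points lie on both sides of it, and Ndufa7, Uqcrh and Atp5f1 are the labelled genes with an unadjusted p under 0.05.

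Genes for assembly factors, which build the complexes without staying in them, had lower levels over all exons than the subunit genes. The subunit genes had a median of 137.7 TPM, against 22.5 TPM over 46 detected of 47 measured assembly factors. The factors had 454, 476 and 442 counts in all. The detected nuclear protein-coding genes had a median of 31.4 TPM, and 50.6% of nuclear protein-coding genes were detected. A median by principal transcript is not given here for the factors. By complex, the detected factors had medians of 22.1 TPM for complex I, 12.5 for II, 23.3 for III, 25.6 for IV and 44.2 for V.

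For complex I the highest factors were Timmdc1 (109.6 ± 32.7 TPM; 21, 34 and 18 counts), Ndufaf1 (57.2 ± 16.8 TPM) and Ndufaf8 (32.5 ± 35.2 TPM; 0, 3 and 7 counts). For complex II they were Sdhaf2, which helps to attach the flavin to Sdha (25.2 ± 2.99 TPM; 24, 24 and 19 counts), Sdhaf4 (18.6 ± 9.53 TPM) and Sdhaf3 (6.38 ± 4.94 TPM), the last with 7, 4 and 1 counts. For complex III they were Uqcc2 (149 ± 30.4 TPM; 18, 16 and 12 counts), Uqcc3 (52.9 ± 7.43 TPM) and Uqcc1 (25.2 ± 6.87 TPM).

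For complex IV they were Coa3 (161 ± 25.3 TPM; 14, 20 and 19 counts), Coa5 (96.5 ± 5.88 TPM; 62, 61 and 63 counts) and Cox14 (94.1 ± 49.5 TPM; 13, 7 and 5 counts). Pet117, a factor of complex IV, had 0 counts, and all of its 50-base stretches occur in another annotated gene. For complex V they were Tmem70 (104 ± 13.7 TPM; 26, 22 and 22 counts), Atpaf2, a chaperone of the alpha subunit (44.2 ± 4.37 TPM), and Atpaf1, a chaperone of the beta subunit (5.98 ± 1.19 TPM; 2, 3 and 3 counts). Of the 50-base stretches of the principal transcript of Atpaf1, 34.8% occur in other annotated genes.

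Cytochrome c, the carrier between complexes III and IV, had a lower message level than the medians of both. Cycs, the somatic form, had 16, 9 and 12 counts and 29.6 ± 9.51 TPM, and Cyct, the testis form, had 0 counts. Of the 50-base stretches of the principal transcript of Cycs, 28.5% occur in other annotated genes, so its counts and its low level are uncertain. Ndufab1, the acyl carrier protein that is also a subunit of complex I, had 4, 6 and 10 counts and 7.88 ± 3.76 TPM (24.6 by principal transcript). Atpif1, the inhibitor of ATP hydrolysis by complex V, was at 114 ± 5.90 TPM (19, 21 and 21 counts; 197 TPM by principal transcript), and Usmg5, a small subunit of complex V, at 87.1 ± 15.4 TPM (32, 34 and 23 counts; 438 TPM by principal transcript).

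All 12 listed regulators of the nuclear subunit genes or of mitochondrial DNA and its messages were detected, where 50.6% of nuclear protein-coding genes were. These 12 had a median of 24.4 TPM. The highest were Yy1 (97.8 ± 9.64 TPM; 70, 91 and 72 counts), Tfam, which packages and transcribes mitochondrial DNA (84.6 ± 22.8 TPM; 43, 63 and 34 counts), and Lrpprc, which stabilises mitochondrial messages (84.4 ± 6.10 TPM; 91, 86 and 88 counts). Messages of the factors whose motifs were searched were detected, and no protein was measured. Nrf1 was at 22.3 ± 1.81 TPM (25, 32 and 28 counts), or 88.8 by principal transcript. The GABP subunit gene Gabpa was at 53.1 ± 6.30 TPM (36, 44 and 32 counts), or 88.0 by principal transcript. Esrra was at 19.3 ± 6.10 TPM (12, 7 and 12 counts). Ppargc1a, the coactivator that raises expression of the nuclear subunit genes in several tissues, was at 16.4 ± 0.0947 TPM (13, 14 and 13 counts). No relation between these levels and those of the subunit genes could be tested over 3 libraries of 1 group.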

How the data were processed

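Total RNA of 3 mpkDCT4a samples was depleted of ribosomal RNA and fragmented to about 300 bp, per the labels' protocols. The authors deposited raw counts, which are whole numbers of reads for each Ensembl gene in each library. The submitters' processing notes name mm10, STAR and HTSeq. The sources used here do not give versions, strand setting, read length or the handling of reads with several matches. Separate cultures are not stated for the replicates, so variation among these 3 samples may be only technical, and no p-value here reaches beyond them. The chi-square and multinomial p-values measure departure from counting error, and the sign-flip p-values use the ratios of the 3 samples.

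The subunit genes and the other gene lists were chosen with earlier results of these data known. Gene names, positions and lengths came from GENCODE M21 on the same build, to which 55227 of 55487 identifiers matched, and the other 260 held 313 counts. Totals were scaled with TMM factors (0.992, 1.00 and 1.01) from edgeR 4.0.16 in R 4.3.3. TPM used the union of a gene's annotated exons, with a named alternative from the shortest APPRIS principal transcript. Detected means at least 1 CPM on average. Each detected gene was tested for differences between libraries by chi-square, with p-values adjusted over all detected genes (Benjamini-Hochberg). For isoform pairs, log2 ratios of counts plus 0.5 per length entered a two-sided exact sign-flip permutation test, and exact binomial 95% intervals were put on ratios of summed counts. Intervals and limits cover counting error only. The share of each transcript's 50-base stretches that occur in other annotated genes, on either strand, was counted, and longer reads would share less. The scripts' tests were tested on simulated data. Python 3.11.15 was used with scipy 1.17.1, pandas 2.3.3 and numpy 2.4.6.

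Named genes follow a rule: the isoform families, the Sdh genes, the core subunits of complex I and the F1 subunits, the 3 highest and 3 lowest detected genes of each complex by TPM, all genes below 1 CPM, those with an unadjusted p under 0.05, the 3 highest genes and all below 1 CPM of the other lists, and the genes that share the most sequence. The other subunit genes, Ndufab1 and the regulators Nrf1, Gabpa, Esrra and Ppargc1a were named for their role, and the promoters to print were picked, with their values in view. A gene that the rule takes is not reported here by name. Other settings tried were size factors from DESeq2 1.42.0, unscaled totals, other filters, pseudocounts and lengths, an exact multinomial test, leaving out genes with shared sequence, counting Ndufa4 with complex IV, and leaving out each replicate.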

Additional observations from a re-analysis of the deposited data

How the results depend on the processing

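Of 185 recomputed values, 156 were called the same, 27 moved by more than 1 SD between libraries and 2 changed direction. Log2 ratios were judged by direction, and medians and mitochondrial to nuclear ratios by 1 SD. Counts of genes or pairs were judged by a wide fold limit, so 57 detected genes, without those over 20% shared in the principal transcript, counted as the same as 77. Some values could hardly move. TPM medians depend on size factors only through which genes are detected, and pairs with a gene without counts kept their direction by their zeros. Across all alternatives 0 subunit genes differed between libraries, and between 2 and 4 had an unadjusted p under 0.05. The median of the detected subunit genes, 137.7 TPM, was 175 TPM by longest protein-coding transcript, 167 by principal transcript, 128 with all genes kept, 163 without genes over 20% shared (169 where sharing was taken in the principal transcript) and 145 to 152 without 1 replicate. By longest and by principal transcript the medians were 138 and 130 TPM for complex I, 165 and 144 for complex II, 210 and 213 for complex III, 362 and 318 for complex IV, and 319 and 301 for complex V. Complex IV had 134 TPM with all genes kept, 260 without genes over 20% shared and 432 where sharing was taken in the principal transcript, and complex V had 199.6 and 233 TPM without the shared genes and 129 to 137 without 1 replicate. The mitochondrial to nuclear ratio was 8.14 for complex I and 12.1 for complex III in CPM without division by length, and 5.82, 9.05 and 12.0 for complexes I, III and IV by principal transcript. The log2 ratio of Atp5g1 to Atp5g2, -0.15, was -1.25 by longest protein-coding transcript, 0.97 by principal transcript and 0.033 without replicate 2 (range without 1 replicate -0.42 to 0.033). The number of pairs with 1 direction was 11, and 12 without replicate 1 or with either other length. The pair added with the other lengths, Atp5g1 with Atp5g2, took opposite directions on them. Principal transcript lengths and sharing within them were chosen after the data were seen. No paired analysis was possible because the labels give 1 group. Depth limits genes of few counts, such as Ndufb2, Atp5s and Atp5l, where 1 count is worth more than 2 CPM.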
